A study of Mus musculus with 12 samples.

Results

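The 6 arrays numbered 2 in a series of 12 were compared here by whether the cells had received dexamethasone (Dex, a synthetic glucocorticoid). All arrays measured total RNA of the mouse line BW5147, which derives from a thymic T lymphoma, at 8 h of treatment. The 3 arrays with Dex (100 ng/ml) came from cells given Dex alone, Dex with IL-9 (interleukin-9, a growth factor of T cells, at 100 U/ml) or Dex with CCL1 (a chemokine that binds the receptor Ccr8, 100 U/ml). The 3 arrays without Dex came from unstimulated cells, cells given IL-9 and cells given CCL1. Arrays were chosen by the number in their label, and each Dex array was paired with the array of the same cytokine, which gave 3 pairs. BW5147 is 1 tumour line, and the labels do not say whether arrays came from separate cultures. P-values rest in part on the spread of the Dex difference over 3 pairs, each with another cytokine condition. In the main model the larger part of the estimate came from the other probe sets (6.57 prior against 2 residual degrees of freedom). The spread over the pairs mixes array-to-array spread, which may be only technical, with any dependence of the Dex change on the cytokine. An exact permutation p of 3 arrays against 3, which ignores the pairs, cannot be below 0.1. Keeping the pairs would raise that limit.

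Glucocorticoids enter the cell and bind the glucocorticoid receptor, encoded by Nr3c1, which is held in the cytoplasm by Hsp90 and its partner proteins. The bound receptor moves to the nucleus, where it raises some genes through DNA elements built from the half-site AGAACA and represses others, many of them inflammatory. Immature T cells and many lymphoid tumours die when exposed to glucocorticoids, and the BH3-only protein Bim, encoded by Bcl2l11, is a known part of that death. Genes such as Tsc22d3, which encodes the leucine zipper protein GILZ, and Fkbp5, an Hsp90 partner that dampens the receptor, are widely used as readouts of receptor activity.

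The cells carried T lineage transcripts in every array. The highest signals in that group were those of Thy1, at 878 to 1525 in the 6 arrays, and Cd3g, at 531 to 635, while Cd247, Cd2 and Cd5 had no array above 14.4 and lay below the filter on low signals. Signals are deposited Affymetrix intensities of the MAS5 algorithm, and 13575 of 22626 probe sets (7536 genes) passed the filter, which lay at a signal of 6.74. None of the 6 B cell and 4 erythroid markers on the array passed it, while 4 of 9 myeloid and 2 of 8 fibroblast and epithelial markers did. Signals summed over all 9 myeloid markers were 52.0 to 83.2 with Dex and 44.5 to 57.7 without. Over all 8 fibroblast and epithelial markers the sums were 29.4 to 42.1 with Dex and 20.0 to 51.4 without. The part of these low signals in the results was not tested. Dex 2 stood apart: its median correlation with the other arrays was 0.967, against 0.978 to 0.984 for the other 11, and in its pair 541 probe sets were lower by over 1 log2 with Dex, against 45 and 67 in the other pairs. CCL1 2 is from a different array type and was deposited in a separate table of the same probe sets, so the CCL1 pair crosses 2 tables. The calls without the pairs of these 2 arrays are given after the gene lists.

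Promoter sequence of 14 of the 17 genes described below was held in the RefSeq table for GRCm38.p6. A 250-base window before an annotated start held the half-site, AGAACA or its reverse complement TGTTCT, in 3 of these genes, and their windows are shown because these are the risen genes with the receptor's half-site next to a start. The windows lie at chrX:140600523-140600772 (minus strand) for Tsc22d3, chr1:52007990-52008239 (plus strand) for Stat4 and chr3:103860027-103860276 (plus strand) for Ptpn22. Each runs 5′ to 3′ toward the start, with the half-site in capitals, which begins 185, 42 and 154 bases before the start.
Tsc22d3: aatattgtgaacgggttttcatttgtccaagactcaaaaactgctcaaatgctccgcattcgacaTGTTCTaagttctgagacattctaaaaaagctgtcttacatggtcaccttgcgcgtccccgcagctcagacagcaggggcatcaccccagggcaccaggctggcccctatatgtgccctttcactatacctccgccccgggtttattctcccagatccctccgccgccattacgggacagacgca
Stat4: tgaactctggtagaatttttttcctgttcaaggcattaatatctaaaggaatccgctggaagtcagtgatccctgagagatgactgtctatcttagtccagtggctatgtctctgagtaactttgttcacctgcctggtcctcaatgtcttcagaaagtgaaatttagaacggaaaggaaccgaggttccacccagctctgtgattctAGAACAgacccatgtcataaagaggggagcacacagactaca
Ptpn22: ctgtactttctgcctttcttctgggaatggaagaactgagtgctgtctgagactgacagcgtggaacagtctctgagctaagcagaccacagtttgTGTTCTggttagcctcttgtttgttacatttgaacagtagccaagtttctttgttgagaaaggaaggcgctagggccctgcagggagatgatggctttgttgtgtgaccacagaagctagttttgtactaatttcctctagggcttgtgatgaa
The 17 genes had 22 windows in the table, of which 3 (13.6%) held a half-site, and 16.1% of all 32851 windows held one. The full palindrome, in which the half-site and its reverse complement stand 3 bases apart, was in none of the 22 and in 0.00913% of all windows. A match is a description of these letters, and distal elements lie outside the windows. Akap12, Zfp36l2 and Stc1 were not in the promoter table.

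With Dex, 16 genes rose and 1 fell. Among them were the receptor readouts Tsc22d3 and Fkbp5, the death gene Bcl2l11, the CCL1 receptor Ccr8, the scaffold gene Akap12, and Ggct, which encodes gamma-glutamylcyclotransferase, an enzyme of glutathione turnover. Stc1, encoding the secreted glycoprotein stanniocalcin 1, was the gene that fell. By probe set, 22 rose (0.162% of those tested) and 1 fell (0.00737%), and by gene, each read from its probe set of highest mean signal, the shares were 0.212% and 0.0133%. Changes are given on the log2(signal + 16) scale as Dex minus no Dex, with the standard error (SE) and the adjusted p of a limma model of the 3 pairs. In all 23 probe sets the 3 Dex arrays lay entirely beyond the 3 others. These include 1 rise without a gene symbol, which passed the filter only through its Dex arrays. Over all genes, 480 (6.37%) had the 3 Dex arrays above the others and 441 (5.85%) had them below.

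**Figure D1:**
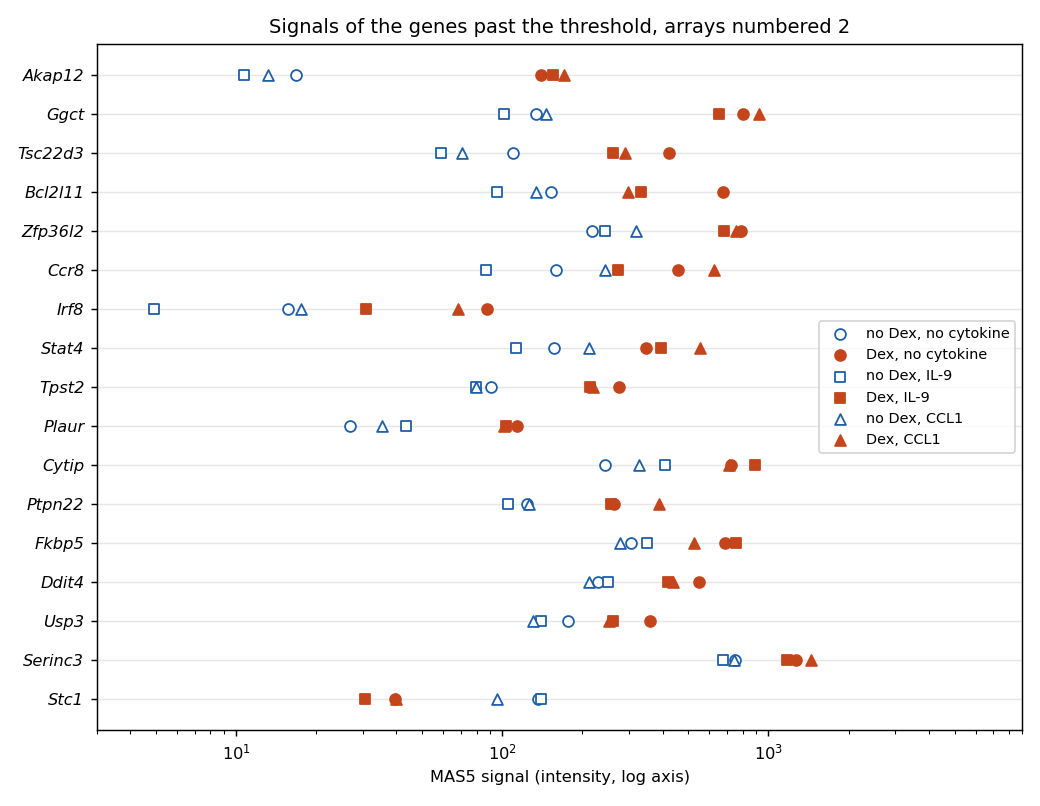
Signals of the 17 genes past the threshold in the 6 arrays numbered 2, on a log axis in MAS5 intensity units. Filled points are arrays with Dex and open points arrays without, circles are arrays with no cytokine, squares IL-9 and triangles CCL1. In each gene the filled and open points do not overlap, and Akap12 and Ggct have the widest gaps.

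Akap12 encodes a scaffold that holds protein kinase A near the membrane. Its signals were 140 in Dex 2, 155 in Dex+IL-9 2 and 170 in Dex+CCL1 2, against 16.8 in unstimulated 2, 10.7 in IL-9 2 and 13.1 in CCL1 2. The low arrays were all those without Dex, and the 3 Dex arrays lay within a narrow range. The mean was 155 ± 15 with Dex and 13.5 ± 3.06 without (SD, n = 3 each), a rise of 2.54 (SE 0.17, adjusted p = 0.00150).

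Ggct gave the smallest p of all probe sets. Its signals were 803, 655 and 925 with Dex alone, Dex with IL-9 and Dex with CCL1, and 134, 101 and 147 in unstimulated, IL-9 and CCL1 cells. Every Dex array was several times brighter than its partner, and the pairs differed by nearly the same amount, 2.44, 2.51 and 2.53. The rise was 2.50 (SE 0.12, adjusted p = 0.000161).

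Among the textbook targets of the receptor, Tsc22d3 rose most. Its signals were 422, 261 and 290 with Dex alone, with IL-9 and with CCL1, against 109, 58.7 and 70.8 in the partners of these arrays. The cells without cytokine had the highest signal on both sides, and the IL-9 cells the lowest, so the pair differences of 1.81, 1.89 and 1.82 were close to each other. The rise was 1.84 (SE 0.13, adjusted p = 0.0015). A second probe set of the gene rose by 1.94 (adjusted p = 0.00523), while the third, with signals of 18.4 to 32.2, had a difference of 0.16 (adjusted p = 0.864). Fkbp5 had signals of 688, 753 and 526 with Dex and 306, 348 and 277 without, a rise of 1.03 (SE 0.12, adjusted p = 0.0189). Its groups did not overlap, and its other probe set rose by 1.25 (adjusted p = 0.0218).

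Zfp36l2 encodes a protein that binds AU-rich messages and hastens their decay. Its signals were 788, 681 and 754 with Dex and 218, 243 and 319 without, a rise of 1.47 (SE 0.14, adjusted p = 0.00858). A second, dimmer probe set had a difference of 0.35 (adjusted p = 0.752), with overlapping groups. Ddit4, encoding the mTORC1 inhibitor REDD1, had signals of 549, 419 and 438 with Dex and 229, 249 and 211 without, a rise of 0.98 (SE 0.14, adjusted p = 0.0438). In the brightest probe set of both genes the arrays with Dex lay above all others.

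Bcl2l11 was the death gene that rose. Its signals were 673 in Dex 2, 333 in Dex+IL-9 2 and 297 in Dex+CCL1 2, and 153, 95.5 and 134 in unstimulated, IL-9 and CCL1 cells. Dex 2 was the high array, and the pair differences were 2.03 with no cytokine, 1.64 with IL-9 and 1.06 with CCL1. The rise was 1.58 (SE 0.18, adjusted p = 0.0189), and it was 1.35 without the pair of Dex 2 (adjusted p = 0.000137). It did not pass without the IL-9 pair (1.55, adjusted p = 0.0604) or without the CCL1 pair (1.84, adjusted p = 0.204). Of its 4 other probe sets past the filter, 1 rose by 1.21 (adjusted p = 0.0189) and the others had differences of 1.03, 0.83 and 0.79 (adjusted p = 0.0714, 0.189 and 0.247).

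Ccr8, the receptor of the chemokine given to the cells of the third pair, rose in each pair. Its signals were 456 with Dex alone, 271 with Dex and IL-9 and 623 with Dex and CCL1, against 159, 86.9 and 243 without Dex. The IL-9 arrays were the lowest and the CCL1 arrays the highest both with and without Dex, so that Dex+IL-9 2 lay only a little above CCL1 2. The pair differences were 1.44, 1.48 and 1.30, and the rise was 1.41 (SE 0.12, adjusted p = 0.00527).

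Stat4 encodes a transcription factor activated by interleukin-12 and type I interferon. Its signals were 346, 395 and 552 with Dex and 156, 113 and 212 without, with the CCL1 cells highest on both sides, and it rose by 1.35 (SE 0.15, adjusted p = 0.0159). Irf8 encodes a transcription factor best known from myeloid and B cells. Its signals were 87.4, 30.6 and 68.2 with Dex and 15.6, 4.93 and 17.5 without, a rise of 1.40 (SE 0.19, adjusted p = 0.0359). Its IL-9 arrays were the dimmest on each side, and 1 of them was below the filter. The second probe set of Irf8 had a difference of 1.05 (adjusted p = 0.165).

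Further risen genes were Cytip, Ptpn22, Plaur and Tpst2. Cytip, a partner of cytohesins in leukocyte adhesion, rose by 1.23 (SE 0.13, adjusted p = 0.0159), with signals of 712 to 894 with Dex and 244 to 410 without. Ptpn22, a phosphatase that restrains T cell receptor signalling, rose by 1.22 (SE 0.15, adjusted p = 0.0189), with 257 to 388 against 105 to 126. Plaur, the urokinase receptor, rose by 1.26 (SE 0.18, adjusted p = 0.0438), with 101 to 114 against 26.9 to 43.6. In none of these genes did the groups overlap. Tpst2, which sulfates tyrosines of secreted and membrane proteins, rose by 1.34 (SE 0.14, adjusted p = 0.0113), with 213 to 276 against 79.3 to 90.8.

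Usp3, a deubiquitinase of histones, rose by 0.88 (SE 0.13, adjusted p = 0.0489), with signals of 251 to 358 with Dex and 131 to 177 without. Serinc3, a multipass membrane protein, rose by 0.82 (SE 0.11, adjusted p = 0.0438), with 1176 to 1450 against 676 to 749. These were the smallest changes that passed. Slain1, a microtubule protein, passed only in a probe set that was not its brightest, with a rise of 1.13 (adjusted p = 0.0438). The remaining probe set, to which the annotation gave no gene symbol, passed as a rise (adjusted p = 0.0189), with 44.2, 39.9 and 105 with Dex and 2.66, 2.26 and 3.22 without. Its 3 arrays without Dex were below the filter signal of 6.74, so it was kept through the Dex arrays alone. Its call stays in the probe set counts but is not read as a result, and no size is given.

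Stc1 was lower in every Dex array. Its signals were 39.7, 30.4 and 39.8 with Dex and 137, 140 and 95.7 without, and the lowest array without Dex was CCL1 2. It fell by 1.40 on the log2 scale (SE 0.19, adjusted p = 0.0358). Of the genes with the next smallest p in this direction none passed. Nr1d1, the clock repressor REV-ERB alpha, was lower in each Dex array (adjusted p = 0.0930). Gadd45g, a stress-response gene, had a difference of -1.13 (adjusted p = 0.136). Dipk2a had a difference of -0.63 (adjusted p = 0.137) and Plekha3 of -0.76 (adjusted p = 0.199). Nr1d1 had signals of 2.66, 2.59 and 1.68 with Dex and 22.0, 22.8 and 18.2 without, so its Dex arrays were below the filter and no size is given.

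Counted pair by pair with no test, 11 genes were higher by over 1 log2 with Dex in all 3 pairs, and Stc1 was lower by as much. The 11 were Cytip, Zfp36l2, Ggct, Stat4, Ccr8, Bcl2l11, Tsc22d3, Tpst2, Plaur, Akap12 and Irf8. At 0.5 log2 the counts were 51 and 13. In the arrays numbered 1 the same counts were 0 and 0 at 1 log2, and 1 and 2 at 0.5 log2.

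**Figure D2:**
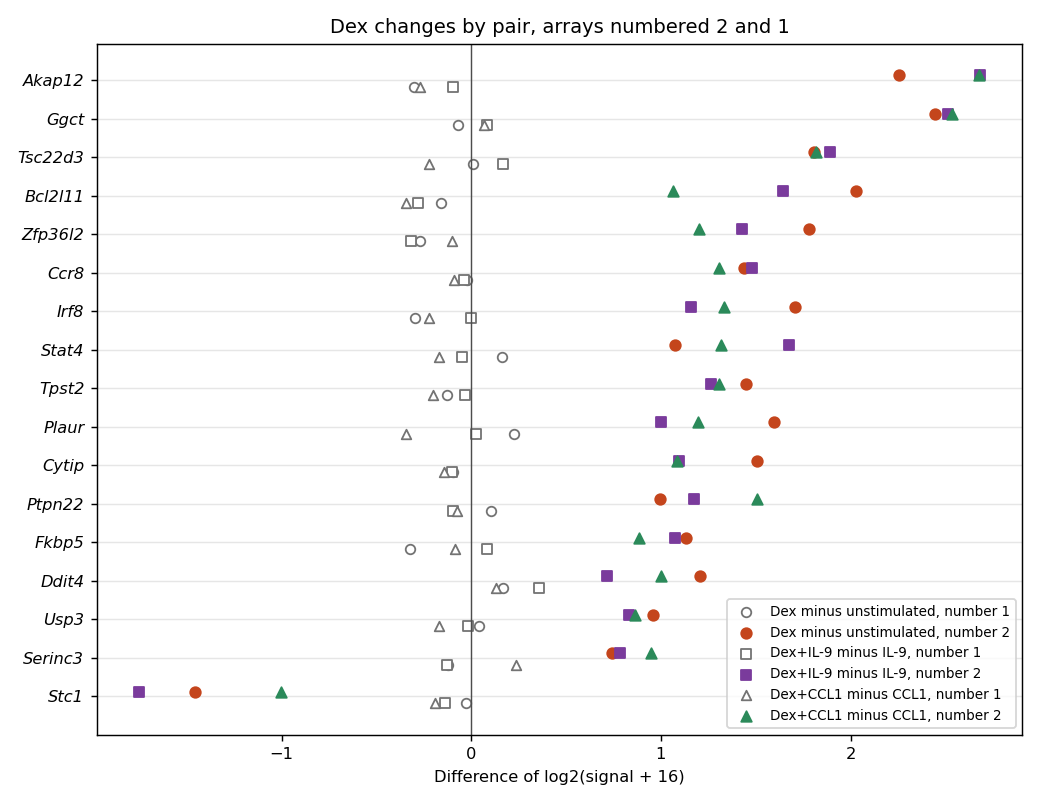
Differences of log2(signal + 16) between each Dex array and its partner, for the 17 genes past the threshold. Coloured points are the 3 pairs numbered 2 and open grey points the 3 pairs numbered 1. All coloured points of the 16 risen genes lie to the right of 0 and those of Stc1 to the left, while the grey points lie near 0.

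The genes were then read by lists of pathways and cell functions, each described by its counts and its median beside those of all genes, whose median was -0.0050 (0.212% of genes rose and 0.0133% fell). Of 35 glucocorticoid-induced genes, 23 passed the filter. Tsc22d3, Fkbp5, Ddit4 and Zfp36l2 rose, none fell, and the median of the 23 was 0.56. In 12 of the 23 the Dex arrays lay above all others, against 6.37% of all genes. In 1, the cell cycle inhibitor gene Cdkn1a, they lay below, against 5.85% of all genes. These counts use the brightest probe set of each gene, and another overlapped in Tsc22d3, Nfkbia, Rgs2, Txnip, Zfp36l2 and Cdkn1a. The mean log2 level of the list was 7.68, 7.63 and 7.55 in the Dex arrays and 6.99 to 7.10 in their partners, with no overlap.

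Several members of that list came close to the threshold without passing it. Dusp1, a phosphatase that switches off MAP kinases, had signals of 203, 165 and 108 with Dex and 62.9, 59.1 and 65.4 without, and a difference of 1.12 (SE 0.19, adjusted p = 0.0918). Nfkbia, the inhibitor of NF-kB, had 896, 715 and 570 against 494, 341 and 379, a difference of 0.81 (adjusted p = 0.073). In both genes the groups did not overlap, and Dex+CCL1 2 was the lowest Dex array. Gadd45a had a difference of 1.00 (adjusted p = 0.0863), Pik3r1, a regulatory subunit of PI3 kinase, of 0.96 (adjusted p = 0.128), and the clock gene Per1 of 0.82 (adjusted p = 0.199). Sgk1, named for its response to serum and glucocorticoids, had signals of 39.3, 241 and 62.6 with Dex and 47.1, 226 and 48.9 without. Its high arrays were the pair with IL-9, and the difference with Dex was 0.059 (SE 0.16, adjusted p = 0.944).

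Of 17 measured genes for the receptor, its chaperones and its coregulators, Fkbp5 was the member that rose, and the median was -0.065 (-0.020 without the pair of Dex 2). Nr3c1 had signals of 118, 245 and 195 with Dex and 156, 132 and 112 without. The pairs with IL-9 and CCL1 were higher with Dex, by 0.82 and 0.72, and the pair of Dex 2 was lower, by 0.36. The difference over the 3 pairs was 0.39 (SE 0.23, adjusted p = 0.75). The Hsp90 partner gene Fkbp4 had a difference of 0.077 (adjusted p = 0.896), with 353 to 372 with Dex and 331 to 364 without, which overlap.

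Of 14 measured BH3-only and effector death genes Bcl2l11 rose and none fell, with a median of 0.076. Gpr65, a proton-sensing receptor known to be induced by glucocorticoids in dying thymocytes, had signals of 182, 264 and 412 with Dex and 109, 62.9 and 80.3 without. All Dex arrays were above the others, but the pair differences were uneven, at 0.66, 1.83 and 2.15, and the difference of 1.54 (SE 0.26, adjusted p = 0.0808) did not pass. Bbc3, encoding the BH3-only protein Puma, had a difference of 0.15 (adjusted p = 0.864) with overlapping arrays. None of 12 caspase and apoptosome genes and none of 13 survival genes passed. Mcl1, a survival protein that Bim binds, had a difference of 0.15 (adjusted p = 0.827), and the difference of Bcl2l1, encoding Bcl-xL, was 0.035 (adjusted p = 0.977).

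Of 14 measured inflammatory and NF-kB genes Irf8 rose and the median was 0.050. Tnfsf14, encoding the TNF family ligand LIGHT, had signals of 91.8 in Dex 2, 106 in Dex+IL-9 2 and 22.9 in Dex+CCL1 2, against 11.8, 18.6 and 11.9 without Dex. The CCL1 pair differed by 0.48 and the others by 1.95 and 1.82, and the difference of 1.42 (SE 0.28, adjusted p = 0.165) did not pass. Il10, an anti-inflammatory cytokine, had 16.1, 68.6 and 9.75 against 1.49, 5.91 and 5.72, and did not pass (adjusted p = 0.48). Its arrays without Dex were all below the filter signal of 6.74, so no size is given. None of the 14 had all 3 Dex arrays below the others. The share over all genes was 5.85%, by which a list of 14 may hold none, so nothing is read from this count.

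Of 15 chemokine and trafficking receptors Ccr8 rose, and the median was -0.17. Ccr9, a receptor of thymocytes, had a difference of 0.020 (SE 0.15, adjusted p = 0.982), although its signals ran from 84.0 to 420 over the 6 arrays. Its low arrays were the pair with IL-9 and its high ones the pair with CCL1. Of 21 cytokine receptor and JAK-STAT genes Stat4 rose, with a median of -0.017 (-0.078 without the pair of Dex 2), and Il9r, the receptor of IL-9, had signals of 12.1 to 18.6 with Dex and 7.76 to 12.6 without (difference 0.26, adjusted p = 0.799). Of 10 genes of cAMP and phosphoinositide signalling Akap12 rose, and the median was 0.32. In 5 of the 10 the Dex arrays lay above all others, against 6.37% of all genes. Crem, Inpp5d and Rgs2 were among these, and each had another probe set that overlapped between the groups. Crem was dim in all arrays, with signals of 4.60 to 24.8.

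None of the measured members of the other lists passed in either direction. Among 21 genes of G1 cyclins, CDK inhibitors and the MYC network the median was -0.099. In 5 of these the Dex arrays lay below all others, against 5.85% of all genes. The 5 were the cyclin genes Ccnd2, Ccnd3 and Ccne2, the kinase gene Cdk2, and Cdkn1a. Their differences ran from -0.30 for Ccnd2 to -0.54 for Cdkn1a, apart from Ccne2, whose -0.68 became -0.30 without the pair of Dex 2. The other probe sets of Ccnd2 had differences of -0.20 to 0.028, and most overlapped between the groups. The second probe set of Cdkn1a had a difference of -0.16 and overlapped too. Myc had a difference of 0.31 (adjusted p = 0.663). Among 16 quiescence genes, which FOXO factors help to drive, the median was 0.14, and Klf13 had signals of 118, 127 and 172 with Dex and 59.2, 61.3 and 59.6 without (difference 1.01, adjusted p = 0.073). Among 13 clock genes the median was -0.15 (-0.074 without the pair of Dex 2). In Nr1d1, Bhlhe40 and Rora the Dex arrays lay below all others, against 5.85% of all genes, and in Per1 above, against 6.37%. The difference of Rora, -0.66, became -0.23 without the pair of Dex 2, and its 2 other probe sets overlapped between the groups. The medians of the genes of the T cell receptor (21 genes), DNA replication (23), mitosis (19), ribosome biogenesis (23), glycolysis (16), cholesterol synthesis (15), ATF4 and stress (19) and the immediate-early response (14) lay between -0.11 and 0.078. Without the pair of Dex 2 they lay between -0.13 and 0.052, with the T cell receptor genes lowest, while cholesterol synthesis moved from -0.11 to -0.024 and ribosome biogenesis from -0.078 to 0.010. The median of the glucocorticoid-induced genes was 0.50 without that pair.

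**Figure D3:**
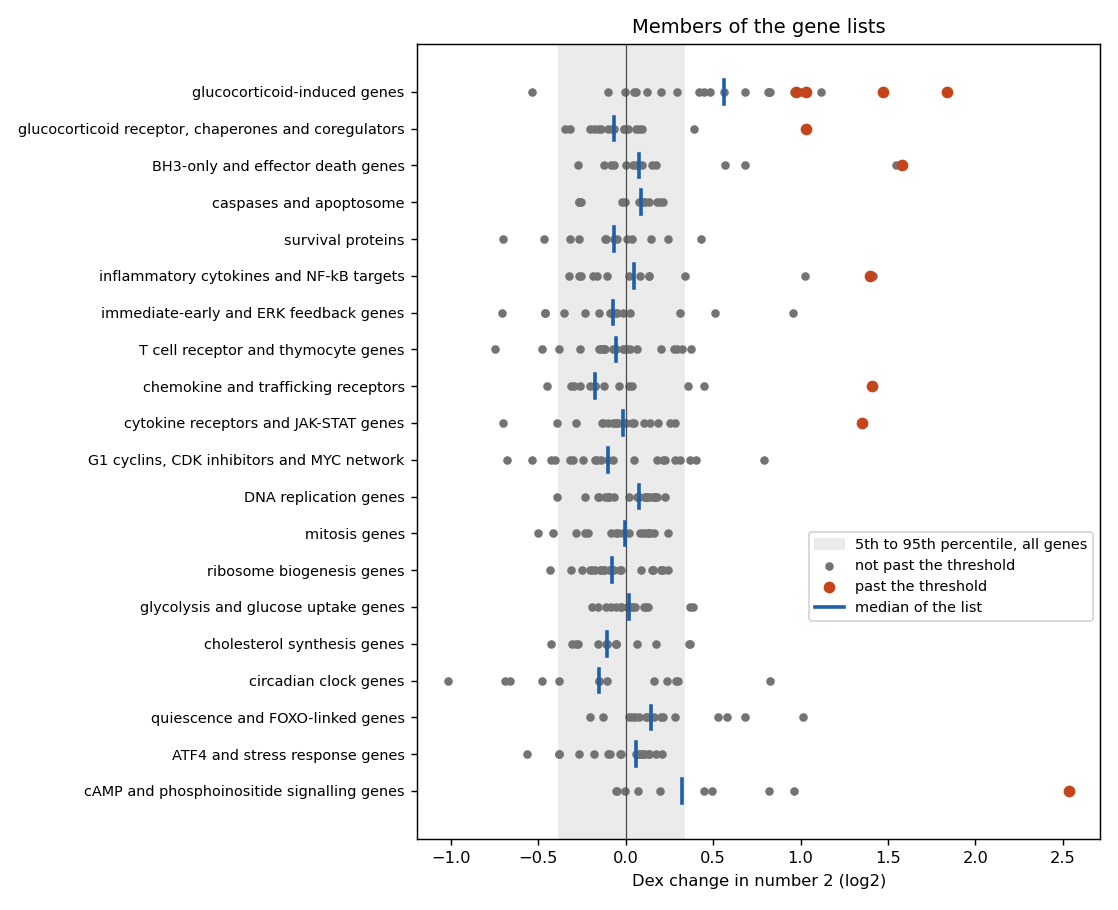
Dex change in the arrays numbered 2 (log2, mean of 3 pairs) of each measured member of the 20 pathway lists. Large points passed the threshold, small points did not, blue bars are list medians and the grey band spans the 5th to the 95th percentile of all genes. The glucocorticoid-induced list has the highest median, 0.56, and 4 members past the threshold.

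The pair of Dex 2 was left out because this array stood apart. All 23 probe sets passed again, with rises of the 16 genes from 0.85 for Usp3 to 2.68 for Akap12 and a change of -1.38 for Stc1 (adjusted p = 0.00193). With 2 pairs, 78 probe sets rose and 14 fell, and by gene 46 rose (0.61%) and 6 fell (0.0796%). Of the 69 added probe sets, 26 had a lower value in Dex 2 than in unstimulated 2, among them 14 of the 56 added rises. With 1 residual degree of freedom the 2-pair model took most of its estimate of the spread from the other probe sets.

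The genes added in this way included 4 more of the glucocorticoid-induced list, Dusp1 (0.94, adjusted p = 0.0199), Nfkbia (0.80, 0.0088), Pik3r1 (1.07, 0.0199) and Gadd45a (0.98, 0.00772), each value being the change without the Dex 2 pair and its adjusted p. Gpr65 rose by 1.99 (SE 0.15, adjusted p = 7.27e-07) and Klf13 by 1.10 (SE 0.17, adjusted p = 0.00291). Nr3c1 rose by 0.77 (SE 0.15, adjusted p = 0.0132) and Nrip1, a corepressor of nuclear receptors, by 0.97 (adjusted p = 0.000741). In these last genes Dex 2 had a lower value than unstimulated 2, by 0.36 and 0.20. Among the falls, Gadd45g fell by 0.81 (adjusted p = 0.0185), and Apobec3, a cytidine deaminase that restricts retroviruses, fell by 0.88 (adjusted p = 0.0086), although Dex 2 was 0.16 above unstimulated 2 in that gene.

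Without the CCL1 pair, whose control was in the other table, none of the probe sets passed in limma (676 had an unadjusted p under 0.05), so all 17 genes lost their call. The changes of the 16 risen genes were then 0.76 for Serinc3 to 2.48 for Ggct, with adjusted p from 0.0759 to 0.708, and that of Stc1 was -1.60 (adjusted p = 0.292). That model also has 1 residual degree of freedom, and its 2 pairs hold Dex 2. Without the IL-9 pair, 18 probe sets passed, 9 of them among the 23. The genes among these were Ggct, Akap12, Tsc22d3, Ccr8, Zfp36l2 and Cytip, and the other 11 genes had adjusted p from 0.0577 to 0.13. Both models without the array CCL1 2 itself were chosen after seeing the data. The 3 Dex arrays against the other 2, with no pair term, gave 4 calls, all among the 23, for Ggct, Akap12, Zfp36l2 and Stc1. A model of the 11 arrays of the larger table, with the replicate number as a block, gave 80 calls for Dex in the arrays numbered 2 and kept all 23. In it Ggct rose by 2.51 (SE 0.11, adjusted p = 4.44e-07), Bcl2l11 by 1.74 (SE 0.17, adjusted p = 0.000353) and Ccr8 by 1.48 (SE 0.13, adjusted p = 0.000155).

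In the arrays numbered 1 the same 3 pairs gave 0 called probe sets (0% of those tested; 901 had an unadjusted p under 0.05). The changes of the 17 genes there ran from -0.26 for Bcl2l11 to 0.22 for Ddit4. Akap12 had signals of 195, 168 and 148 with Dex and 244, 180 and 182 without, and Ggct had 949, 773 and 1020 against 996, 730 and 972. In both genes all 6 arrays numbered 1, with or without Dex in the label, lay above the highest array without Dex numbered 2, at 16.8 and 147. The glucocorticoid-induced list was at a mean log2 level of 7.56 to 7.66 in all 6. Stc1 had 44.7, 22.3 and 16.1 with Dex and 46.0, 26.2 and 20.5 without, all below the lowest array without Dex numbered 2, at 95.7.

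The difference between the numbers was tested itself in a model of all 12 arrays with 6 pairs. It was higher in number 2 for 26 probe sets (0.192%) and lower for 0 (0%). Of the 23 probe sets called in number 2, 19 were among the 26, and of the 17 genes, 14. Ddit4 (difference 0.76, adjusted p = 0.125), Serinc3 (0.83, 0.0679) and Stc1 (-1.28, 0.0679) were the genes that did not pass. Since the Dex changes in number 2 enter this difference, it is no independent support for them.

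**Figure D4:**
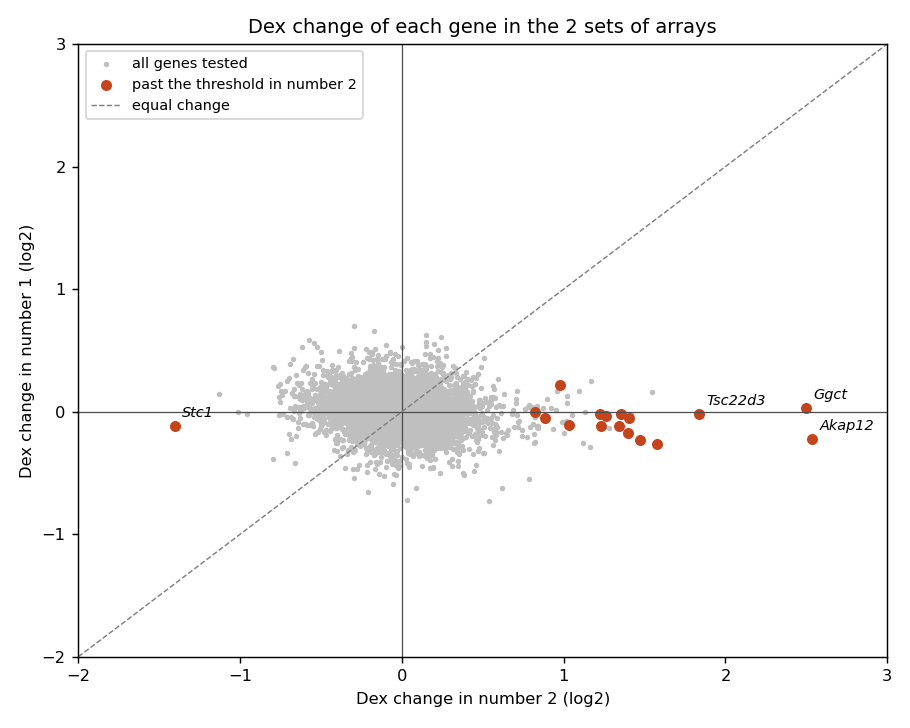
Dex change of each of the 7536 genes in the arrays numbered 2 (horizontal, log2) against the arrays numbered 1 (vertical, log2). Large points are the 17 genes past the threshold in number 2, and the dashed line marks equal changes. The large points lie along the horizontal axis, from -1.40 for Stc1 to 2.54 for Akap12, and between -0.26 and 0.22 on the vertical axis.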

How the data were processed

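Per the labels, biotin-labelled cRNA from total RNA was measured on Affymetrix arrays. Per the submitters' processing notes, the deposited intensity values are MAS5 signals on a linear scale, whose version is not given in the sources used here. The mean signal after trimming 2% at each end was 100.0 to 100.1 in all 12 arrays, so a shift of all genes could not be seen. The 2 tables were joined by probe set.

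After removal of 64 control probe sets, log2(signal + 16) was taken, which understates folds of low signals, and probe sets above the 40th percentile of the mean over the 6 arrays were kept. Genes were named from probe sets with 1 symbol in the platform annotation (20393 of 22690, with 691 holding several and 1606 none). The fit was limma 3.58.1 (R 4.3.3) with cytokine pair and Dex as terms, an intensity trend and Benjamini-Hochberg adjustment (threshold 0.05). It had 2 residual and 6.57 prior degrees of freedom. The same model was used for the arrays numbered 1. The models were tested on simulated data.

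The arrays, lists and named genes were chosen with earlier results of these data known. The genes named were the 15 largest rises and falls past the threshold with groups apart, the 5 smallest p where fewer than 5 passed, the marker genes, Nr3c1, Il9r, called list members and up to 4 others per list. Serinc3, Slain1, the genes called only without the Dex 2 pair and some list members (Sgk1, Fkbp4, Ccr9, Mcl1, Bcl2l1, Bbc3, Nfkbia, Myc) were added after their values were seen. Of the probe sets, 20364 matched the gene table of GRCm38.p6, which changed 0 symbols.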

Additional observations from a re-analysis of the deposited data

Results flagged for a closer look

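The Dex change differed between the arrays numbered 2 and those numbered 1 in 20 of the genes described above or called without the pair of Dex 2, by the test of the difference in limma. The differences (number 2 minus number 1, log2, with adjusted p over all probe sets) were 2.76 for Akap12 (7.89e-05), 2.47 for Ggct (1.27e-05), 1.85 for Tsc22d3 (0.000537), 1.84 for Bcl2l11 (0.00502), 1.70 for Zfp36l2 (0.00137) and 1.57 for Irf8 (0.0124). They were 1.46 for Tpst2 (0.00196), 1.46 for Ccr8 (0.00123), 1.37 for Stat4 (0.00986), 1.34 for Cytip (0.00382), 1.30 for Plaur (0.0492), 1.25 for Ptpn22 (0.0116), 1.14 for Fkbp5 (0.0108) and 0.93 for Usp3 (0.0274). Dusp1 (1.37, 0.037), Gadd45a (1.18, 0.0408), Nfkbia (1.07, 0.0171), Galc (1.42, 0.0396), Sap30 (0.95, 0.0274) and Zfp704 (1.33, 0.00502) also differed. These 6 did not pass with the 3 pairs numbered 2 and passed without the pair of Dex 2. In all 20 genes the change was larger in number 2. The genes were chosen by calls in number 2, whose values enter the difference, so this shared direction is no independent support.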

How the results depend on the processing

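The 23 calls for Dex in the arrays numbered 2 became 7 with no filter on low signals and 5 with no intensity trend. They became 36 with quantile normalization, 40 with median centring and 17 with no pair term. Other pseudocounts or a filter at the 60th percentile gave 19 to 26. With only 1 probe set per gene in the fit, 31 genes passed, among them all 17 genes of the main fit. Leaving out 1 pair at a time gave 0 to 92 calls. The model of all 12 arrays with the replicate number as a block and Dex split by number gave 110 (86 rises and 24 falls) and kept all 23. The 11 arrays of the larger table, an alternative chosen after seeing the data, gave 80, and 3 arrays against 2 with no pair term and no CCL1 2 array gave 4. The cause of these shifts was not tested. Of the 17 genes none changed direction in any of the alternatives, and Akap12 and Ggct lost their call only without the CCL1 pair. The arrays numbered 1 gave 0 calls, except 13 without the pair of Dex 1 and 25 without the CCL1 pair, so leave-one-out gave 0 to 25. The 26 calls of the difference became 13 with no intensity trend. The pairs, 3 in number, limit the precision, and the part of the join of 2 tables in the CCL1 pair was not tested.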

Other observations

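Values outside the comparisons bear on RNA quality. The ratio of 3′ to 5′ signal of the control probe sets was 0.68 to 0.78 for Gapdh and 1.10 to 1.22 for beta-actin over the 12 arrays, and Dex 2 had 0.78 and 1.13.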
